A study of Mus musculus with 19 samples.

Results

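The HoxC genes are one of the mouse Hox clusters, a run of homeobox genes that lie side by side on chromosome 15. Members were taken as every gene whose symbol in any of the 4 deposited tables is Hoxc followed by a number. This gave 4 of the 4213 genes in the tables, Hoxc5, Hoxc6, Hoxc8 and Hoxc10 (Entrez Gene 15424, 15425, 15426 and 209448). The cluster holds 9 HoxC genes in the GENCODE M21 annotation, all on the plus strand in the order Hoxc13, Hoxc12, Hoxc11, Hoxc10, Hoxc9, Hoxc8, Hoxc6, Hoxc5 and Hoxc4. The other 5 (Hoxc4, Hoxc9, Hoxc11, Hoxc12 and Hoxc13) are in none of the 4 tables. The tables hold only genes past the authors' filter, so nothing can be said of the level of these 5.

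Hox proteins are transcription factors that give cells a position along the head-to-tail axis of the embryo. Within a cluster, genes with low paralog numbers are usually switched on first and reach farthest towards the head, and genes with high numbers follow later and farther back. In undifferentiated cells the clusters are held silent by Polycomb proteins, and retinoic acid, Wnt and FGF signals and the Cdx factors are known to open them. HoxC genes act in the neck, the trunk and the spinal cord, where Hoxc5, Hoxc6, Hoxc8 and Hoxc10 mark motor neurons at successive levels in the mouse.

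The cells were P19CL6 (also spelled PC19CL6 in the labels), a mouse embryonal carcinoma line used as a model of heart muscle differentiation. Total RNA was profiled by digital gene expression, which counts 1 short tag per transcript, so that a level does not scale with the length of the transcript. The groups were day 1 (3 libraries) and days 4, 7, 10 and 14 of differentiation (4 libraries each), 19 libraries in all, with no treatment given in the labels. The design text speaks of 4 replicates at each day, and the mean tag counts of day 1 are multiples of 1 over 3. The reference of every deposited comparison, day 1, is itself a day of differentiation, and beating was seen at day 14 according to the design text. The mean library of a day held 5.72 to 5.96 tags in units of 1e6. Nothing in the labels says whether the replicates were separate cultures.

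All values are the authors' day means, in TPM (tags per 1e6 tags of the library). The tables give no value of a single library, so the spread between replicates is unknown, no p-value can be given, and a value carried by 1 library could not be seen. The 95% intervals in brackets are exact (Poisson for levels, Clopper-Pearson for folds and shares, conditional for ratios of folds) and cover counting error only. In bulk RNA, fewer cells with a transcript and less transcript per cell cannot be told apart.

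Hox genes are alike in the homeobox, the part that encodes the DNA-binding domain, and this matters for a method that counts short tags. The enzyme that anchored the tags is not given in the sources used here, so the last tag of each transcript was looked up for both enzymes of such kits, NlaIII (site CATG) and DpnII (site GATC). For NlaIII the last tag of each of the 4 members was found at a site in the GENCODE M21 transcripts (build GRCm38) of 0 other genes, and the same held for DpnII. Most of these tags lie in the 3' UTR. The NlaIII tag of Hoxc6 and the DpnII tag of Hoxc10 lie in the coding part or 5' of it, 970 and 855 bases from the 3' end. GENCODE places Hoxc5 over the spans of Hoxc6, Hoxc8 and Hoxc10 on the same strand, through a long transcript of Hoxc5. How the authors assigned tags of such shared spans is not given in the sources used here.

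All 4 members were at 0 tags at day 1 and rose afterwards. The authors' deposited table for day 4 lists 3 of them as risen (Hoxc5, Hoxc6 and Hoxc8), and the tables for days 7, 10 and 14 list all 4. Of the 4213 genes listed at any day, 21.3%, 25.9%, 40.2% and 49.8% were listed as risen at days 4, 7, 10 and 14. Among the genes listed at each day, 50.5%, 63.5%, 73.9% and 74.4% rose, and 20.2%, 29.2%, 35.8% and 39.1% rose by a deposited log2 ratio of at least 2, as did each of these members. The direction says nothing here, because a gene at 0 tags at day 1 can only be listed as risen. This held for 100.0% of the 57, 107, 189 and 270 such genes at the 4 days. Passing a log2 ratio of 2 says nothing either, since such genes were listed only from 2.01 TPM upward, against 0.01 written for 0. A count of 0 tags over the 3 libraries of day 1 was set to a floor of 3 tags (0.172 TPM). Folds over day 1 are taken against that floor and written as "at least", and the bound under counting error is their lower limit. The exact Poisson 95% limit for 0 tags is higher, 0.212 TPM. The lower limits in brackets beside those folds do not use that value. They are Clopper-Pearson limits from the tags of both days, with 0 at day 1, and so cover the counting error of both days.

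**Figure D1:**
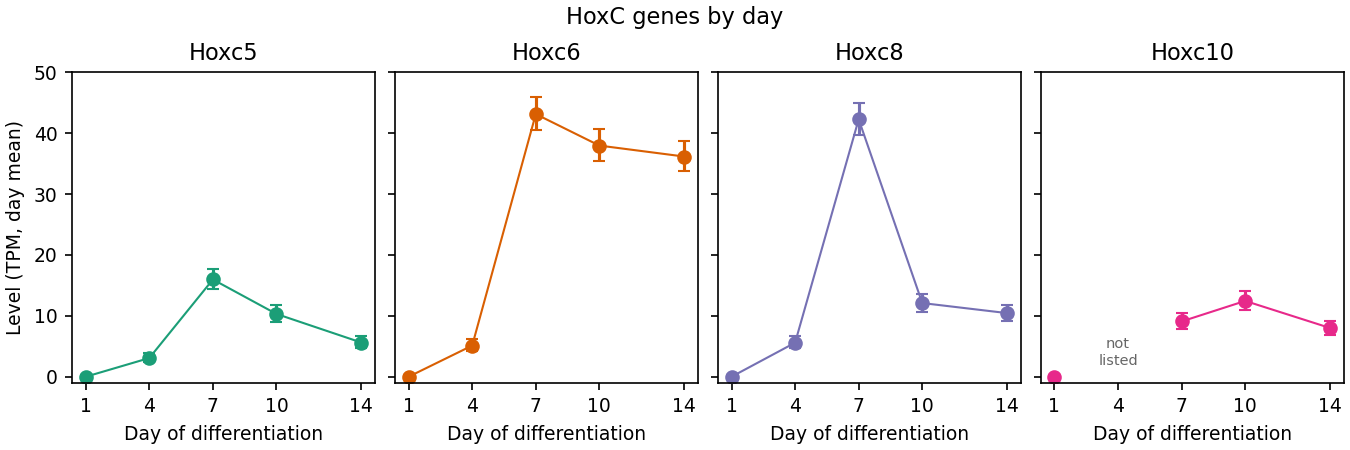
Level of Hoxc5, Hoxc6, Hoxc8 and Hoxc10 (TPM, y axis) at days 1, 4, 7, 10 and 14 (x axis); points are the authors' day means over 3 libraries at day 1 and 4 at each later day, and bars are exact Poisson 95% intervals for counting error. Hoxc6 and Hoxc8 stand near each other at day 7 (43.1 and 42.3 TPM) and apart at day 14 (36.2 and 10.45 TPM); Hoxc10 is not listed at day 4.

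Hoxc5, which acts with Hoxa5 in motor neurons of the neck in the mouse, peaked at day 7 and then declined at each later day. Over days 1, 4, 7, 10 and 14 it stood at 0, 3.07, 16.0, 10.3 and 5.62 TPM, from 0, 72, 373, 236 and 134 summed tags. Its level was at least 17.8-fold higher at day 4 than at day 1 (lower limit 14.1), and at least 92.8-fold higher at day 7 (lower limit 75.1). It was 1.55-fold lower at day 10 than at day 7 (1.31 to 1.83), and 1.83-fold lower at day 14 than at day 10 (1.48 to 2.28). The counting intervals of neighbouring days did not overlap at any step.

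Hoxc6, a gene of the neck-to-thorax region that is needed for motor neurons of the forelimb in the mouse, reached its highest level at day 7 and stayed close to it. Its levels at the 5 days were 0, 5.12, 43.1, 38.0 and 36.2 TPM in order, from 0, 120, 1007, 869 and 862 summed tags. The level at day 7 was at least 250.4-fold higher than at day 1 (lower limit 203) and 8.43-fold higher than at day 4 (6.97 to 10.3). At day 14 it was 1.19-fold lower than at day 7 (1.09 to 1.31), and the fold of day 14 over day 10 included 1 in its interval (0.953, 0.866 to 1.05).

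Hoxc8, a gene of the thorax that in the mouse also shapes motor pools of the forelimb, was close to Hoxc6 up to day 7 and then dropped away. Day by day its levels were 0, 5.59, 42.3, 12.1 and 10.45 TPM, from 0, 131, 987, 277 and 249 summed tags. The level at day 7 was 7.56-fold higher than at day 4 (6.30 to 9.15). At day 10 it was 3.49-fold lower than at day 7 (3.05 to 4.01), and at day 14 it was 0.863 of the day 10 level, with an interval that included 1 (0.725 to 1.03). Divided by the median fold of all genes listed at days 10 and 14 (1.05), the fold of day 14 over day 10 was 0.819 for Hoxc8 (0.688 to 0.976) and 0.904 for Hoxc6 (0.822 to 0.995), and neither interval then included 1. This scaling was added after the data were seen. Its divisor rests only on genes past the authors' filter and is taken as free of error, so it does not settle whether either gene fell.

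Hoxc10, which marks the lumbar level and acts with Hoxa10 and Hoxd10 in hindlimb motor neurons of the mouse, was first listed later than the other 3. It was at 0 TPM at day 1 and not listed at day 4. Over days 7, 10 and 14 it stood at 9.08, 12.45 and 8.01 TPM, from 212, 285 and 191 summed tags. Its highest level came at day 10, when it was 1.37-fold higher than at day 7 (1.14 to 1.65). At day 14 it was 1.55-fold lower than at day 10 (1.29 to 1.88), and the fold of day 14 over day 7 included 1 (0.883, 0.722 to 1.08). Genes at 0 tags at day 1 were listed at day 4 from a mean of 13.25 tags upward, so fewer tags of Hoxc10 than that cannot be told from none at day 4.

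The order of the levels changed over time. At day 4 Hoxc8 and Hoxc6 overlapped in their intervals (4.67 to 6.63 and 4.24 to 6.12 TPM), with Hoxc5 below both (2.40 to 3.87 TPM). At day 7 Hoxc6 and Hoxc8 again overlapped (40.5 to 45.9 and 39.7 to 45.0 TPM), and Hoxc5 and Hoxc10 followed in that order without overlap (14.4 to 17.7 and 7.90 to 10.4 TPM). At day 10 Hoxc6 stood alone at the top, and Hoxc10, Hoxc8 and Hoxc5 overlapped (11.0 to 14.0, 10.7 to 13.6 and 9.04 to 11.7 TPM). At day 14 Hoxc8 (9.19 to 11.8 TPM) and Hoxc10 (6.92 to 9.23 TPM) met only at their limits, and Hoxc5 (4.71 to 6.66 TPM) lay below both.

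**Figure D2:**
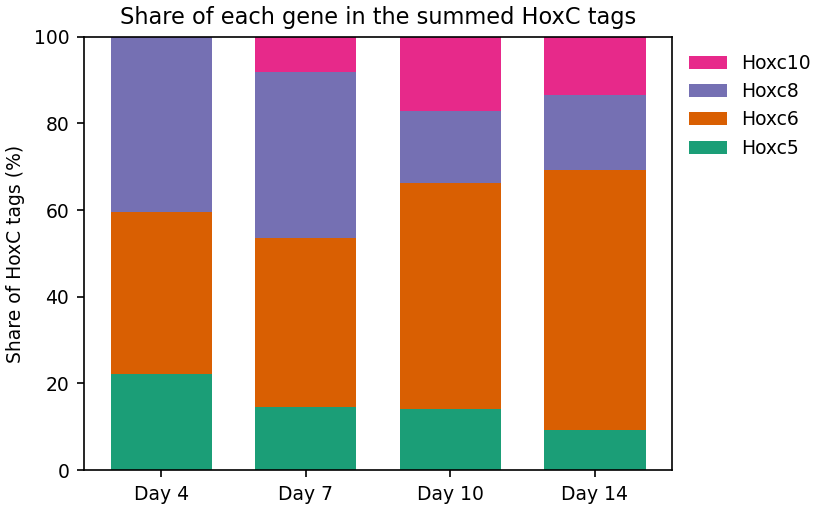
Share of Hoxc5, Hoxc6, Hoxc8 and Hoxc10 in the summed tags of the listed HoxC genes (percent, y axis) at days 4, 7, 10 and 14 (x axis). The share of Hoxc6 is 39.0% at day 7 and 60.0% at day 14, and that of Hoxc8 is 38.3% and 17.3%.

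As a share of all HoxC tags, Hoxc6 made up 37.2% (31.9 to 42.7), 39.0% (37.2 to 41.0), 52.1% (49.7 to 54.6) and 60.0% (57.4 to 62.6) over days 4, 7, 10 and 14. Hoxc8 made up 40.6% (35.2 to 46.1), 38.3% (36.4 to 40.2), 16.6% (14.9 to 18.5) and 17.3% (15.4 to 19.4) at the same days. Hoxc5 made up 22.3%, 14.5%, 14.2% and 9.33%. Hoxc10, which has no value at day 4, made up 8.22%, 17.1% and 13.3% at days 7, 10 and 14. From day 10 on, Hoxc6 thus accounted for about as many HoxC tags as the other members together, or for more.

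Changes of the members between days were compared by the ratio of their folds, in which the library totals cancel. Between days 4 and 7 the folds of Hoxc6 and Hoxc8 differed 1.11-fold, with an interval that included 1 (0.849 to 1.46). Between days 7 and 10 the fold of Hoxc6 was 3.07 times that of Hoxc8 (2.61 to 3.63), and the fold of Hoxc8 was 0.209 of that of Hoxc10 (0.166 to 0.262). Between days 10 and 14 the intervals again included 1 for Hoxc6 against Hoxc8 (1.10, 0.903 to 1.35). The fold of Hoxc5 over those days was 0.572 of that of Hoxc6 (0.450 to 0.726) and 0.847 of that of Hoxc10 (0.634 to 1.13), which includes 1. Hoxc6 and Hoxc8 thus could not be told apart in their rise, and parted between days 7 and 10. The fold of Hoxc5 between days 4 and 7 was smaller, 0.617 of that of Hoxc6 (0.446 to 0.860).

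**Figure D3:**
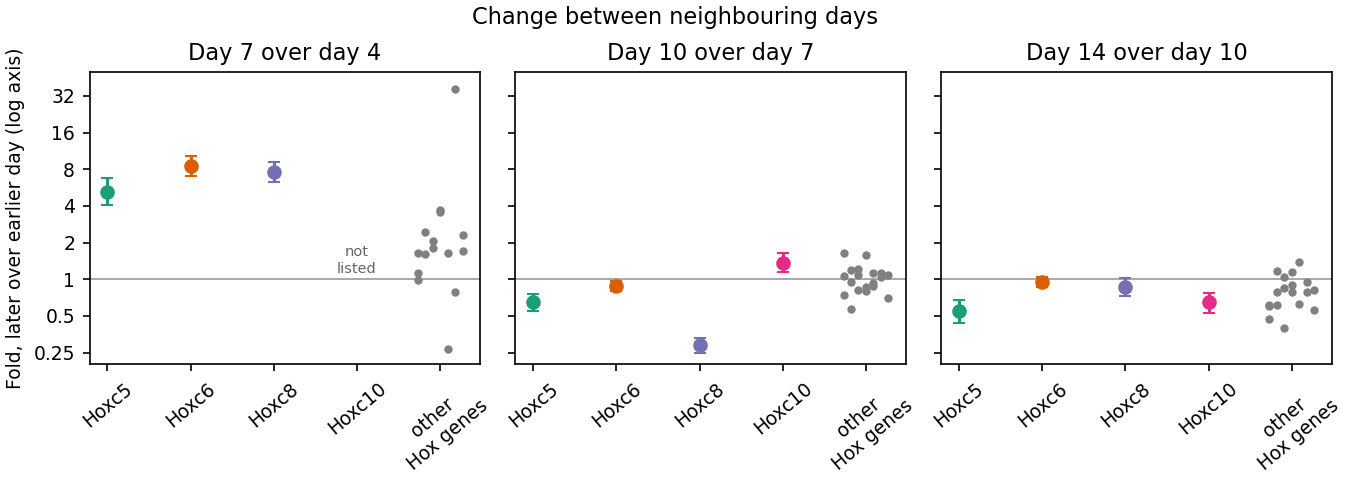
Fold between neighbouring days (later over earlier, log axis) for each HoxC gene with its exact 95% interval for counting error, and for the other Hox genes listed at both days (grey points, no interval shown). Hoxc8 lies at 0.286 for day 10 over day 7, below all 19 grey points of that panel, and the 3 HoxC genes of the first panel lie above 14 of 15 grey points.

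Between days 4 and 7 the folds of the HoxC genes were larger than those of most Hox genes listed at both days. The 3 members listed at both days were at least 2-fold higher at day 7, which held for 10.6% of the 823 genes listed at both days. The folds of Hoxc5, Hoxc6 and Hoxc8 were each higher than those of 14 of the 15 Hox genes of other clusters listed at both days, whose median was 1.70-fold. The exception was Hoxd10, 36.1-fold higher (28.0 to 47.4). Hox genes that were not listed at day 4 have no such fold, among them Hoxa10 and Hoxa11, which stood at 23.81 and 15.59 TPM at day 7. Other genes at 0 tags at day 1 were listed at day 4 from 2.26 TPM upward, so the folds of Hoxa10 and Hoxa11 may be as large as those of the HoxC genes or larger. In that comparison the interval of the ratio of folds lay above 1 for Hoxc6 and Hoxc8 against 15 of the other 17 Hox genes, members included, and for Hoxc5 against 14.

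Between days 7 and 10 Hoxc8 had the lowest fold of the Hox genes listed at both days. Hoxa9, at 2.53 TPM at day 7 and not listed at day 10, has no fold. No member was at least 2-fold higher at day 10, against 9.69% of the 1280 genes listed at both days. Hoxc8 was the 1 member of 4 at least 2-fold lower, which held for 5.23% of those genes. The ratio of its fold to that of each of the other 22 Hox genes lay below 1 with its whole interval. The nearest was Hoxd1, which had a fold of 0.567 (0.429 to 0.746), and the fold of Hoxc8 was 0.504 of that (0.371 to 0.689). Among the 80 other genes that were at 0 tags at day 1 and listed at both days, 1 had a lower fold than Hoxc8, and the median of the set was 1.37-fold. These genes are those still high enough at day 10 to be listed, so genes that dropped below the filter are missing from the count.

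Hoxc5 was also low in that order and Hoxc10 high. For day 10 over day 7, the fold of Hoxc5 lay below that of 17 of the other 22 Hox genes with the whole interval, above that of 1, and included equality for 4. For Hoxc10 it lay above that of 15, below that of 0, and included equality for 7. Hoxc6 was in the middle, below 8, above 5 and including equality for 9. Between days 10 and 14, 0 of 4 members were at least 2-fold lower, against 1.60% of 1808 genes, and none was at least 2-fold higher, against 6.19%.

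**Figure D4:**
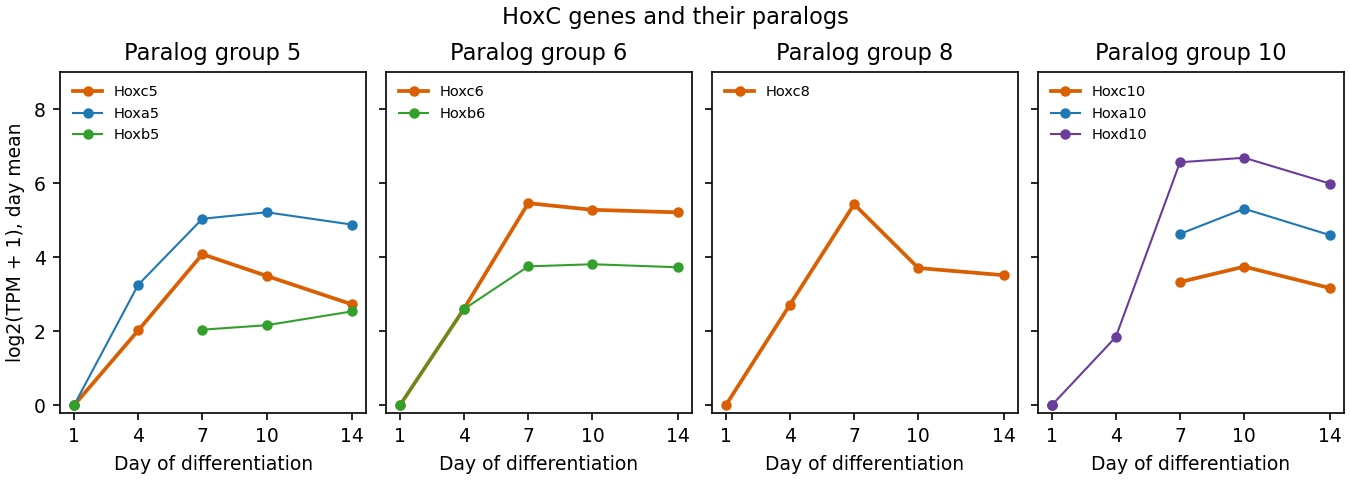
Level as log2(TPM + 1) (y axis, day means) at days 1, 4, 7, 10 and 14 (x axis) of the HoxC genes and of the HoxA, HoxB and HoxD genes with the same paralog number; lines join listed neighbouring days, and all genes shown are at 0 TPM at day 1, where points overlap. Hoxc6 and Hoxb6 start together at day 4 (5.12 and 5.08 TPM) and stand apart at day 7 (43.1 and 12.5 TPM), and paralog group 8 holds Hoxc8 only.

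Genes of different clusters with the same paralog number are the closest relatives and often share functions. In paralog group 5, Hoxc5 was below Hoxa5 at each day from day 4 on (16.0 against 31.9 TPM at day 7 and 5.62 against 28.5 TPM at day 14), and its fold from day 7 to day 14 was 0.394 of that of Hoxa5 (0.313 to 0.495) and 0.228 of that of Hoxb5 (0.158 to 0.330). Hoxb5 was listed from day 7 on, at 3.13, 3.49 and 4.82 TPM. The level of Hoxb5 at day 14 was 1.54 times that at day 7, while that of Hoxc5 was 0.352 of it.

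In paralog group 6, Hoxc6 and Hoxb6 had near-equal levels at day 4 (5.12 and 5.08 TPM). At day 7 Hoxc6 stood at 43.1 TPM, against 12.5 TPM for Hoxb6, and the fold of Hoxc6 over those days was 3.42 times that of Hoxb6 (2.54 to 4.59). From day 7 on, no change in that distance could be told from counting error. The ratio of folds was 0.843 from day 7 to day 10 (0.697 to 1.02) and 1.01 from day 10 to day 14 (0.836 to 1.23). Hoxa6 is not listed in any table. In paralog group 8, Hoxc8 is listed and Hoxb8 and Hoxd8 are not.

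In paralog group 10, Hoxc10 was the lowest of 3 at each day it was listed. At day 10 it stood at 12.45 TPM, Hoxa10 at 38.75 TPM and Hoxd10 at 102 TPM, and each of the 3 had its highest level at that day. Hoxc10 and Hoxa10 could not be told apart in their folds. The intervals of the ratios included 1 from day 7 to day 10 (0.843, 0.682 to 1.04) and from day 10 to day 14 (1.07, 0.861 to 1.33). Against Hoxd10 the ratio was 1.26 from day 7 to day 10 (1.04 to 1.53) and 1.05 from day 10 to day 14 (0.859 to 1.28). Hoxd10 was listed at 2.60 TPM at day 4, and Hoxa10, like Hoxc10, was listed from day 7.

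Among the 4 listed HoxC genes the first day of listing followed the paralog number. The 3 genes numbered up to 8 were listed from day 4 and Hoxc10 from day 7, while Hoxc4 and Hoxc9 are in no table. In the HoxA, HoxB and HoxD clusters, 14 of 17 genes with numbers 1 to 9 were listed from day 4 and 3 from day 7. Of the 5 such genes with numbers 10 to 13, 2 were listed from day 4, 2 from day 7 and 1 from day 10. Gene by gene, the order held in HoxA and HoxD and not in HoxB, where Hoxb5 was listed from day 7 and Hoxb9 and Hoxb13 from day 4. The day of the highest level was day 7 for the 3 lower HoxC genes and day 10 for Hoxc10. In the other clusters 4 of the 5 genes with numbers 10 to 13 were highest at day 10 and 1 at day 4. Of the 17 with numbers 1 to 9, 3, 8, 4 and 2 were highest at days 4, 7, 10 and 14. A listing depends on the authors' filter as well as on the level.

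**Figure D5:**
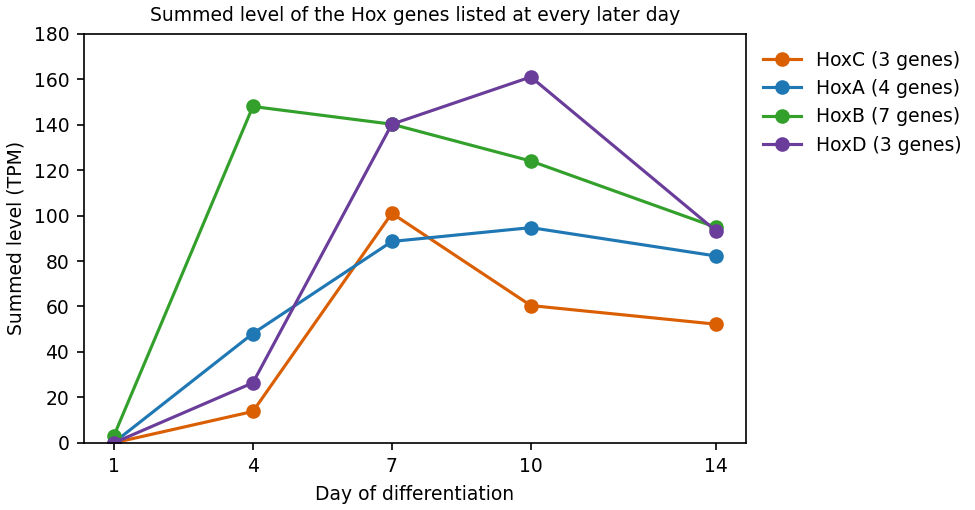
Summed level (TPM, y axis) at days 1, 4, 7, 10 and 14 (x axis) over the genes of each Hox cluster that are listed at all 4 later days, with their number in the legend. HoxC is highest at day 7 (101 TPM), HoxB at day 4, and HoxA and HoxD at day 10.

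Summed over all listed members, the HoxC cluster stood at 0, 13.8 (12.3 to 15.4), 110.5 (106 to 115), 72.8 (69.4 to 76.4) and 60.2 TPM (57.2 to 63.4) over the 5 days. Over the 3 members listed at all later days the sums were 13.8, 101, 60.4 and 52.2 TPM at days 4, 7, 10 and 14, and this sum was 7.36-fold higher at day 7 than at day 4 (6.55 to 8.29). The same fold was 5.32 for 3 HoxD genes (4.88 to 5.81), 1.84 for 4 HoxA genes (1.71 to 1.98) and 0.948 for 7 HoxB genes (0.904 to 0.995). The HoxD value rests on Hoxd10, since Hoxd3 was 2.32-fold and Hoxd4 1.64-fold higher. Over all genes listed at each day, which differ between the days, the sums at days 4, 7, 10 and 14 were 48.1, 142, 160.0 and 125 TPM for HoxA, 153, 143, 127 and 99.7 TPM for HoxB, and 30.3, 147, 167 and 93.2 TPM for HoxD. Over the genes listed at all later days, the fold of day 10 over day 7 was 0.596 for HoxC (0.557 to 0.637). It was 1.15 for HoxD (1.09 to 1.20), 1.07 for HoxA (1.01 to 1.14) and 0.882 for HoxB (0.838 to 0.928). HoxC thus had the lowest fold of the 4 clusters between days 7 and 10. Its sum rests on 3 genes, and Hoxc8 gave most of the difference.

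Among all genes that were at 0 tags at day 1, Hoxc6 and Hoxc8 ranked 3 and 4 by level at day 7, of 107 listed. At day 4 their ranks were 26 and 21 of 57, with Hoxc5 at 40. By day 14 Hoxc6 ranked 13 of 270 listed, and Hoxc8, Hoxc10 and Hoxc5 ranked 65, 87 and 122.

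The genes with a course most like the members were found by the Euclidean distance of log2(TPM + 1) over the 5 day means, among 555 other genes listed at all 4 later days. For Hoxc5 they were Cpm, a carboxypeptidase gene (distance 0.58), the ligand gene Bmp2 (1.01) and Hoxb7 (1.04). For Hoxc6 they were Hoxa5 (0.84), the matrix protein gene Sparcl1 (1.09) and the semaphorin receptor gene Nrp2 (1.18). For Hoxc8 they were the ubiquitin ligase gene Trim9 (0.86), Sparcl1 (1.27) and the neurotrophin receptor gene Ngfr (1.41). Trim9 stood at 24.4, 14.4 and 10.1 TPM over days 7, 10 and 14, and Ngfr at 32.7, 7.47 and 5.03 TPM. Hoxc10 was not ranked, since it is not listed at day 4. The day means of all these genes come from the same libraries.

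Genes known to act on Hox clusters were listed in small numbers. Of 13 regulators and cofactors, 3, 3, 4 and 4 rose at days 4, 7, 10 and 14 and 0 fell, in the authors' deposited tables. Of the 4213 genes listed at any day, 21.3%, 25.9%, 40.2% and 49.8% rose at those days. Cdx1, which binds Hox regulatory DNA, stood at 1.61, 32.4, 9.68 and 9.86 TPM over days 1, 4, 7 and 14, and was not listed at day 10. The cofactor gene Meis2 stood at 20.1, 46.1, 60.0, 175 and 229 TPM over the 5 days. The listed regulators and cofactors summed to 314, 234, 260.2 and 272 TPM at days 4, 7, 10 and 14. The same genes summed to 26.6, 26.6, 43.3 and 29.3 TPM at day 1. Cdx1 and Meis2 made up only a minor part of the sums at days 4 and 7, so they do not give the course of the list. Of 18 retinoic acid genes, 4, 6, 6 and 8 rose, and 0, 0, 1 and 1 fell. Both lists count genes that no table lists, and the shares of the 4213 genes do not. Whether either list stands apart from those shares therefore cannot be told. Aldh1a2, the enzyme gene of retinoic acid synthesis in the embryo, stood at 0.120, 17.7, 15.7, 41.8 and 61.8 TPM, and the receptor gene Rarb at 0.520, 23.2 and 44.0 TPM over days 1, 10 and 14, with no listing between.

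Of 30 Polycomb and trithorax genes, 3, 3, 5 and 4 rose and 2, 3, 3 and 3 fell at the 4 later days. The listed ones summed to 102, 154, 194 and 144 TPM at days 4, 7, 10 and 14, against 182, 304, 308 and 286 TPM for the same genes at day 1. Bmi1, the Polycomb subunit gene with the largest log2 ratio of the list, stood at 0.630, 6.57, 11.3, 14.2 and 11.3 TPM over the 5 days. Of 13 neighbours and non-coding genes of the HoxC locus, 2, 1, 3 and 1 rose and 0 fell. Of the 4213 genes listed at any day, 21.3%, 25.9%, 40.2% and 49.8% rose at those days. Among the genes listed at each day, 50.5%, 63.5%, 73.9% and 74.4% rose and the rest fell. These 2 lists also count genes that no table lists, so whether they stand apart from those shares cannot be told. Calcoco1, which lies beyond Hoxc13, stood at 9.76, 22.6, 19.8 and 37.8 TPM over days 1, 4, 10 and 14, and was not listed at day 7. The median deposited log2 ratio of the listed regulators and cofactors was 4.33, 2.59, 2.68 and 2.66 at days 4, 7, 10 and 14, beside 1.02, 1.26, 1.49 and 1.59 over all listed genes. The medians of the authors' deposited table were 3.54, 3.81, 5.48 and 4.95 for the retinoic acid genes and 1.71, 1.66, 1.09 and 1.95 for the locus neighbours. For the Polycomb and trithorax genes they were 1.58, about 0, 1.51 and 1.93. All these medians rest on the few listed genes of each list, and those of the locus neighbours at days 7 and 14 on 1 gene. The deposited ratio of a gene at 0 tags at day 1 rests on the 0.01 written for 0, as for Stra6 among the retinoic acid genes (10.36 at day 14). Whether the medians stand apart from those of all listed genes was not tested.

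Markers of several cell types moved over the same days as the HoxC genes, and their part in the HoxC values was not tested. Of the 4213 genes listed at any day, 21.3%, 25.9%, 40.2% and 49.8% rose at days 4, 7, 10 and 14. Among the genes listed at each day, 50.5%, 63.5%, 73.9% and 74.4% rose and the rest fell. The marker lists also count genes that no table lists, so whether their counts stand apart from those shares cannot be told. A marker at 0 tags at day 1 can only be listed as risen. Of 8 pluripotency markers 4 fell at each later day. Those listed summed to 732 TPM at day 4, against 1785 TPM at day 1, and to 164 to 276 TPM at days 7 to 14, against 2077 TPM at day 1. Pou5f1 alone stood at 1489, 678, 235, 117 and 144 TPM over days 1, 4, 7, 10 and 14, so the fall of the sum is mostly that of Pou5f1. Paraxial mesoderm markers gave 2, 3, 5 and 5 rises of 9. The listed ones summed to 683, 199.8, 90.2 and 52.8 TPM at days 4, 7, 10 and 14, against 2.47 TPM at day 1. Tbx6 alone stood at 669, 153, 19.4 and 13.3 TPM at those days, so the fall of the sum is mostly that of Tbx6. Msgn1 was listed at days 4 and 7 only (13.5 and 2.23 TPM), and Meox1, Meox2 and Foxc2 from day 10. Of these markers Pax3, Msgn1, Meox1, Meox2 and Foxc2 were at 0 at day 1. Pax3, a gene of somites and neural crest, was not listed at day 4 and stood at 44.8, 59.8 and 21.9 TPM over days 7, 10 and 14. Cardiomyocyte markers gave 0, 2, 5 and 7 rises of 9, with sums of 0, 8.05, 117 and 550.3 TPM, against 0.120 TPM at day 1 for those of day 14. Of them Tnnt2, Myl7, Myl4, Myh6, Myh7 and Tnni1 were at 0 at day 1.

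Neural markers gave 0, 0, 1 and 2 rises and 4, 4, 3 and 2 falls of 10, with sums of 63.2, 19.2, 25.0 and 52.0 TPM, against 161 to 185 TPM at day 1, and Dcx was at 0 at day 1. Stmn2 alone stood at 149, 56.5, 12.0, 11.3 and 32.0 TPM over the 5 days, so the fall of the sum is mostly that of Stmn2. Sox1 went the other way, at 0.920, 8.30 and 16.6 TPM over days 1, 10 and 14, as did Dcx (2.98 TPM at day 14). Mesenchyme and fibroblast markers gave 1, 4, 4 and 6 rises of 9, with sums of 25.0, 94.1, 178 and 259.9 TPM, against at most 5.04 TPM at day 1, and Prrx1 and Lum were at 0 at day 1. Twist1 made up most of these sums at days 7, 10 and 14 (75.9, 129 and 176 TPM). Endothelial and blood markers gave 0, 2, 6 and 5 rises of 8, with sums of 0, 18.4, 164 and 47.1 TPM, against at most 0.120 TPM at day 1, and Cdh5, Pecam1, Runx1, Gata1 and Hba-x were at 0 at day 1. Hba-x made up most of the sums at days 10 and 14 (118 and 26.7 TPM). These sums run over the genes listed at each day, and an unlisted gene adds nothing to them. The limits given above for counts of marker rises and falls hold for these lists too.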

How the data were processed

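RNA of P19CL6 cells was profiled with Illumina's tag profiling kit (protocol version in the labels), and tags refer to mouse build mm9, per the submitters' processing notes. Neither aligner nor test is given in the sources used here. The authors deposited 4 tables, 1 per later day against day 1, filtered by FDR per the design text. They hold the mean raw tag count of a day, the deposited TPM (0.01 written for 0, read as 0 here) and the authors' deposited log2 ratio of TPM, of at least 1.00 in size. The deposited P-Value and FDR columns are scores that exceed 1 for part of the genes and were not used. The tables hold 0 columns of a single library.

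Mean counts times the libraries of a day gave summed tags, and group totals followed from counts and TPM, 17.4, 23.4, 23.4, 22.9 and 23.8 tags (in units of 1e6) at days 1, 4, 7, 10 and 14. Folds use a floor of 3 tags where a day had 0. Folds between later days set values of different tables side by side. The day 1 values of the 2456 genes in 2 or more tables were equal in all of them (0 differed at 2 decimals). The members, lists and comparisons were chosen with earlier results of these data known. All HoxC genes and the 3 genes nearest to each are named, and up to 3 genes per list with the largest deposited log2 ratio at the latest day, from which 1 to 3 are given here. Transcript models came from GENCODE M21 (GRCm38), and the sequences of the members are not reported here. Mouse builds differ, so no position of the tags in mm9 is given. Biopython 1.88, scipy 1.17.1, numpy 2.4.6, matplotlib 3.10.9 and pandas 2.3.3 were run under Python 3.11.15. Alternatives covered abundance, fold size, 0 tags, pseudocount, the deposited ratio, rows per symbol, genes listed at all days and scaling.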

Additional observations from a re-analysis of the deposited data

How the results depend on the processing

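With an absolute log2 ratio of at least 2, the number of risen HoxC genes at days 4, 7, 10 and 14 was the same (3, 4, 4 and 4). This was fixed in advance, since genes at 0 tags at day 1 were listed only from 2.01 TPM upward, against 0.01 written for 0. In the more abundant part of each table, from the median upward, it was 0, 2, 1 and 1, and with 1 tag or more required at both days it was 0 at each day, since all members were at 0 at day 1. The median fold over day 1 was 29.7, 169, 71.3 and 53.6 against the floor at the 4 days. It was 6.12, 30.1, 13.3 and 10.2 as a ratio of TPM + 1, which understates the change of low genes. Turned back into folds, the authors' deposited log2 ratios give medians of 512, 2912, 1227 and 923, which rest on the 0.01 written for 0. Without Hoxc10 the summed level was 101, 60.4 and 52.2 TPM at days 7, 10 and 14.

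The median fold between neighbouring days was 7.56, 0.763 and 0.753 for days 7, 10 and 14, and 6.57, 0.775 and 0.772 as a ratio of TPM + 1. After division by the median fold of all genes listed at both days it was 7.51, 0.683 and 0.715. That scaling was added after the data were seen. The median of all genes was 1.01, 1.12 and 1.05, and no fold of a member changed direction under the scaling. For day 14 over day 10, the intervals of Hoxc6 and Hoxc8 included 1 before that division and lay below 1 after it (0.822 to 0.995 and 0.688 to 0.976). Using the most abundant row of a symbol changed nothing, since each member has 1 row. No paired analysis was possible because the tables hold day means and no column of a single library, and leaving out a replicate could not be run for the same reason. Depth limits the day 1 values, where the exact Poisson 95% limit for 0 tags was 0.212 TPM, above the floor of 0.172 TPM.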
